A study of Mus musculus with 12 samples.

Results

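The genes described here are the nuclear-encoded subunits of the respiratory chain and ATP synthase, with the assembly factors that carry the same gene names, in the striatum of mice. They were chosen by symbol: every gene of the count table whose name starts with Nduf, Cox4 to Cox8, Uqcr or Atp5, together with Sdha, Sdhb, Sdhc and Sdhd. The rule took 92 of 24421 genes. By symbol, 45 were placed in complex I, 4 in II, 8 in III, 18 in IV and 17 in V. Of the 92, 88 had at least 10 counts in at least 6 libraries and were tested, and the other 4, Ndufs5, Cox7b2, Cox8b and Cox8c, are described by their values alone.

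RNA sequencing was done on bilateral striatum from 6 VAR samples, from mice injected with varenicline at 2 mg/kg, and from 6 SAL samples, from mice injected with saline. All were male C57BL/6J mice without earlier ethanol exposure, taken through 3 cycles of Drinking-in-the-Dark, a binge-drinking procedure in which 20% ethanol is offered for 2 h starting 3 h into the dark phase. The assigned injection came 30 min before the ethanol session on the second day of the last 2 cycles. The tissue was taken after the final session. Every mouse of both groups had thus been offered ethanol, and there was no ethanol-free group. How much each mouse drank was not examined here. No source used here gives their ages. Varenicline is a partial agonist of neuronal nicotinic acetylcholine receptors used as an aid to stopping smoking. The question that the design puts to these genes is whether their transcripts differed after varenicline.

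The respiratory chain sits in the inner mitochondrial membrane. Complexes I and II take electrons from NADH and succinate, complex III passes them to cytochrome c, complex IV hands them to oxygen, and the proton gradient built on the way drives ATP synthase, complex V. Most subunits are encoded in the nucleus and imported, a few of the catalytic core are encoded in mitochondrial DNA and were not analysed here, and in neurons most ATP for ion pumping and synaptic transmission comes from this chain.

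The libraries held between 13340420 and 27917715 counts, and no pair of libraries agreed within counting noise. The defining genes of striatal projection neurons were abundant in every library, with a mean of 9.15 ± 0.256 log2 CPM (counts scaled by TMM-adjusted library totals, prior count 2) in VAR and 8.93 ± 0.224 in SAL (SD, n = 6 each). Genes of cortical excitatory neurons, absent from the striatum proper, averaged 4.05 ± 0.890 log2 CPM in VAR and 5.17 ± 0.294 in SAL, and 11 of the 14 had an unadjusted p under 0.05, all lower in VAR. VAR library 6, at 5.42, lay inside the SAL range of 4.82 to 5.52. Septal and pallidal genes averaged 2.36 ± 0.566 log2 CPM in VAR and 1.70 ± 0.231 in SAL, oligodendrocyte genes 8.68 ± 0.133 in VAR and 8.53 ± 0.100 in SAL, and astrocyte genes 7.80 ± 0.0651 in VAR and 7.71 ± 0.0593 in SAL. At an unadjusted p under 0.05, 8 of 10 septal and pallidal and 4 of 10 oligodendrocyte genes were higher in VAR. So were 3 of 10 astrocyte and 6 of 14 projection neuron genes, and no gene of these lists was lower at that p. Over all genes, 7.27% were higher and 9.64% lower at that p. With edgeR none passed the adjusted threshold. With DESeq2, 2 oligodendrocyte, 1 astrocyte, 1 cortical and 1 endothelial gene passed it, as did 2.69% of all genes. Microglial, endothelial, smooth muscle and ependymal lists had no gene below the unadjusted threshold except 1 endothelial gene, and their median log2 fold changes were 0.016, -0.022, -0.10 and 0.33.

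The share of all gene counts held by the 92 genes averaged alike in both groups, a difference that was not tested. They took 1.03% ± 0.0168 of all gene counts in VAR and 1.03% ± 0.0269 in SAL (SD, n = 6 each), with libraries between 1.00% and 1.05% in VAR and between 0.992% and 1.06% in SAL. Complex V held the largest share, 0.373% ± 0.00735 in VAR and 0.373% ± 0.0107 in SAL, most of it from Atp5b and Atp5a1, the catalytic beta subunit and the alpha subunit of the F1 head. Complex I held 0.302% ± 0.00586 in VAR and 0.301% ± 0.00820 in SAL, and complex IV 0.198% ± 0.00322 in VAR and 0.201% ± 0.00527 in SAL. The smaller complexes III and II stood at 0.0885% ± 0.00196 and 0.0632% ± 0.00198 in VAR, and at 0.0893% ± 0.00328 and 0.0622% ± 0.00142 in SAL. For each complex the ranges of the groups overlapped. In bulk tissue, fewer cells with a transcript and less of it per cell cannot be told apart.

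**Figure D1:**
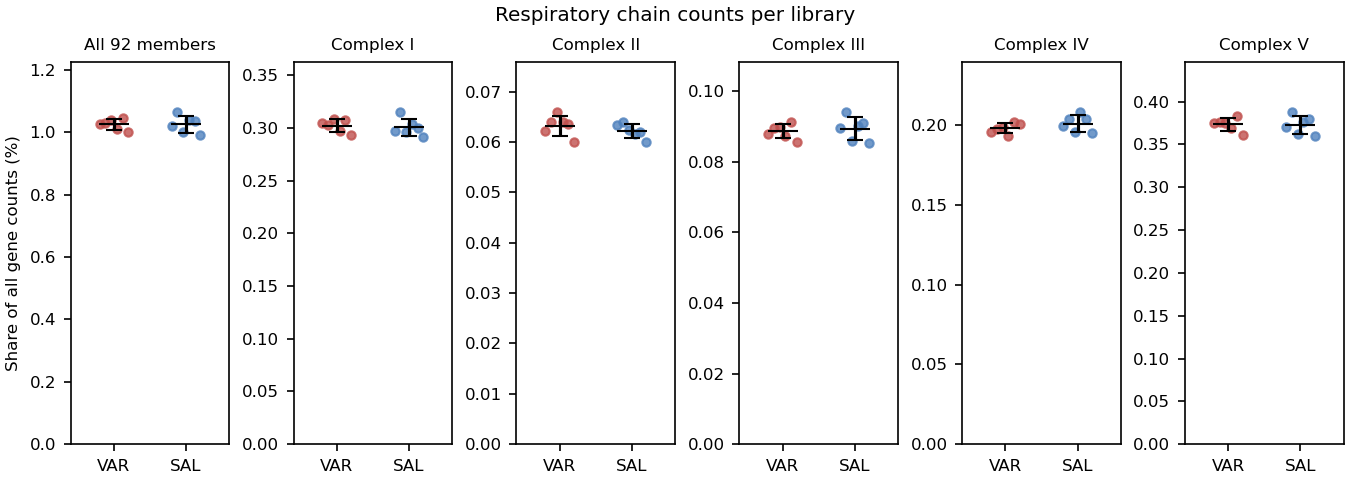
Share of all gene counts (%, y axis) taken by the members of each complex, by library, with the VAR libraries left of the SAL libraries and the mean ± SD of each group (n = 6 each). The groups overlap for every complex, and complex V holds 0.373% in each.

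Levels within the family spanned a wide range. Per gene length, as FPKM, the median over the 92 genes was 141, against 8.97 over all genes tested, so that 96.8% of tested genes lay at or below the members' median. Of the members, 61 exceeded 100 FPKM. By complex the median FPKM was 113 for complex I, 93.9 for complex II, 234 for complex III, 187 for complex IV and 264 for complex V. The highest was Cox4i1, the ubiquitous form of subunit 4 of cytochrome c oxidase, at 789 ± 13.7 FPKM in VAR and 800 ± 27.7 in SAL. It was followed by Atp5k, the e subunit that helps ATP synthase form dimers, at 770 ± 42.8 in VAR and 756 ± 52.1 in SAL, then by Cox8a, Atp5b and Cox6a1. These neighbours in the order do not differ beyond their spread. The order is that of the deposited FPKM and depends on how they scale short genes. By counts Atp5k, of 292 bases, had 71.2 CPM in each group. Atp5b, of 1879 bases, had 1168 CPM in VAR and 1189 in SAL.

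**Figure D2:**
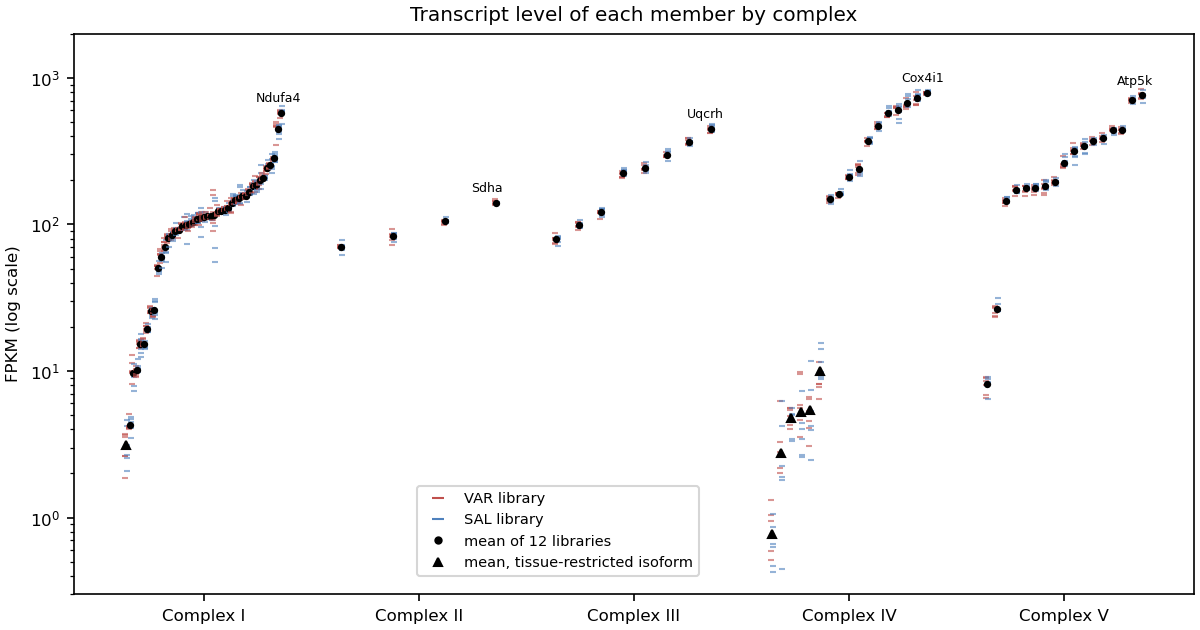
FPKM of each member (log axis) by complex, with dashes for the VAR and SAL libraries, a dot for the mean of the 12 libraries and a triangle for that of a tissue-restricted isoform. Values listed at 0 are left off. Structural subunits lie mostly above 100 FPKM, and most of the lowest values belong to the tissue-restricted isoforms, such as Cox4i2 at 4.74.

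Complex II, the succinate dehydrogenase of the citric acid cycle, is the complex with no subunit encoded in mitochondrial DNA. Sdha, the flavoprotein that oxidises succinate, stood at 142 ± 5.42 FPKM in VAR and 140 ± 1.46 in SAL, Sdhb, the iron-sulfur subunit, at 104 ± 2.90 in VAR and 106 ± 3.40 in SAL, and the membrane anchors Sdhc and Sdhd at 82.6 ± 7.26 and 70.7 ± 1.33 in VAR and 82.9 ± 4.93 and 70.1 ± 5.21 in SAL. The order of the 4 subunits by level was the same in both groups.

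The tissue-restricted isoforms were low beside their widely expressed counterparts. Cox4i2, a form of subunit 4 known for expression in lung and in pericytes, was at 4.98 ± 0.667 FPKM in VAR and 4.50 ± 0.929 in SAL. Cox6a2, the heart and muscle form of subunit 6A, was at 8.61 ± 1.77 in VAR and 11.5 ± 2.80 in SAL, while Cox6a1, the ubiquitous form, was at 653 ± 40.1 in VAR and 705 ± 56.1 in SAL. Cox6b2, known from testis, was at 6.50 ± 2.62 in VAR and 4.07 ± 1.73 in SAL, and its counterpart Cox6b1 was at 552 ± 17.2 in VAR and 594 ± 34.2 in SAL. Cox7a1, the muscle form of subunit 7A, was at 5.03 ± 1.39 in VAR and 5.84 ± 3.28 in SAL, against 209 ± 6.21 in VAR and 216 ± 12.8 in SAL for Cox7a2. Ndufa4l2, a relative of Ndufa4 known as a target of hypoxia signalling, was at 3.01 ± 0.757 in VAR and 3.21 ± 1.02 in SAL, and Ndufa4 itself at 576 ± 24.99 in VAR and 583 ± 54.9 in SAL.

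The members outside the test were all near or below the filter, with 1 exception. Cox8c, a testis isoform, had no count in any library, where 3 counts would have amounted to between 0.107 and 0.225 CPM. Cox7b2, also known from testis, had 3 to 7 counts per library in VAR and 4 to 8 in SAL, and Cox8b, a muscle isoform, had 0 to 17 in VAR and 1 to 27 in SAL. Cox7a1 lay just inside the filter, with 11 to 27 counts in VAR and 11 to 45 in SAL. The exception was Ndufs5, a complex I accessory subunit on chromosome 4 (chr4:123712710-123718186 in the count table), which had 0 counts in all 12 libraries but 90.8 to 171 FPKM in VAR and 55.6 to 152 in SAL in the authors' FPKM table. Of the 100-base stretches in its GENCODE transcripts, 12.7% also occur in the processed pseudogene BC002163, which held at most 13 counts in any library. The authors' counting and their FPKM thus disagree for this gene, the cause was not tested, and its change could not be tested on counts. In all, 22 members share some 100-base stretches with other gene entries. The share was 34.7% in Atp5g2, 16.2% in Cox7c and 16.02% in Ndufb4. Smaller shares include 11.5% in Atp5h, 11.4% in Ndufa12, 11.1% in Ndufb9 and 7.88% in Atp5o, whose main partner is another entry named Atp5o. Their counts may be the less certain for it, which was not tested.

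In the comparison of VAR with SAL, 0 of the 88 tested members passed an adjusted p of 0.05 with edgeR's quasi-likelihood F test, as did 0% of all 15111 genes. The smallest adjusted p among the members was 0.223. By sign, 36 members were higher and 52 lower in VAR, and their median log2 fold change was -0.014, against 0.0074 over all genes. At an unadjusted p under 0.05, 1 member was higher, where 7.27% of all genes were, and 3 were lower, where 9.64% of all genes were. Together these 4 were 4.55% of the members, against 16.9% of all genes and 18.8% of the 11886 genes expressed at or above the lowest member outside the restricted isoforms. By DESeq2, 0 members passed an adjusted p of 0.05, where 2.69% of all genes did, and 3 had an unadjusted p under 0.05, where 17.5% of all genes did. DESeq2 gave no adjusted p for 4 members, Cox6b2, Cox7a1, Cox4i2 and Ndufa4l2, and for 2930 of all genes, so these could not pass. For no member were the 6 VAR values all on one side of the 6 SAL values, which was the case for 0.754% of all genes (0.324% with all VAR values lower). With limma-voom and sample weights 0 members passed an adjusted p of 0.05 where 13.9% of all genes did, and 7 had an unadjusted p under 0.05 where 28.7% of all genes did. Without VAR library 6, the edgeR fit again had 0 members past the adjusted threshold, where 10.8% of all genes were, and 11 members with an unadjusted p under 0.05, where 26.3% of all genes were.

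The members' values varied less between libraries than those of most genes. The median standard error of a log2 fold change was 0.0523 for members and 0.0889 for all genes, and the median SD of log2 CPM within a group was 0.0743 in VAR and 0.0816 in SAL, against 0.154 in VAR and 0.152 in SAL for all genes. The members were also better counted, with a median of 77.9 CPM against 23.8, though they are short, with a median length of 756 bases against 2958. For 82 of the 88 members, 93.2%, the 95% interval of the difference lay within 0.32 log2 units of no difference. Over all genes that share was 53.5%, and it was 67.7% for those at or above the lowest member outside the restricted isoforms. That last set is not matched for level, as its median was 36.8 CPM against 77.9 for the members. For 74 members, 84.1%, the log2 fold change was within 0.1 of no difference, against 50.6% of all genes. The part of cortical tissue in these values was not tested beyond a fit that took the cortical score in as a covariate. That score was lower in VAR on average, 4.05 against 5.17 log2 CPM in SAL, so the fit cannot separate cortical tissue from the injection. In it 0 members passed the adjusted threshold, where 0.0794% of all genes did. There 1 member, Atp5g2, or 1.14%, had an unadjusted p under 0.05, where 5% of all genes did.

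**Figure D3:**
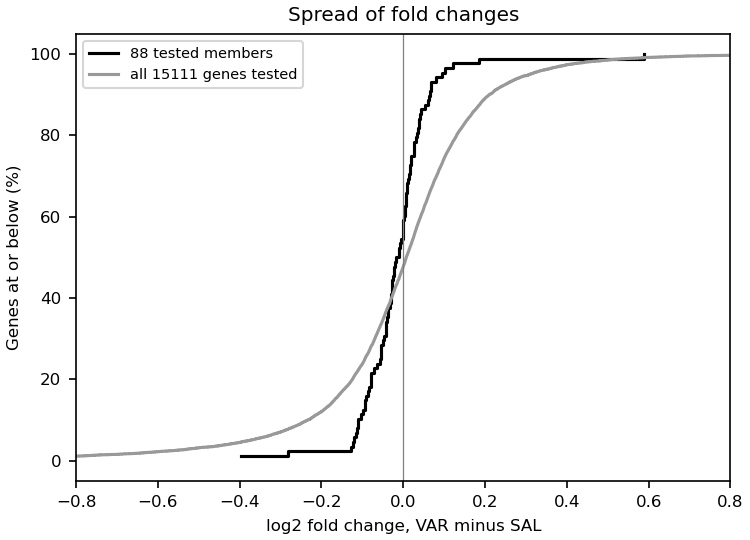
Cumulative share of genes (%) at or below each log2 fold change, VAR minus SAL, for the 88 tested members and all 15111 genes tested. The members' curve is the steeper, with 84.1% of members within 0.1 of no difference against 50.6% of all genes.

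By complex the median log2 fold changes were close to 0, and those of complexes I and II changed sign when 1 library was left out. In complex I, 23 members were higher and 21 lower in VAR, with a median of 0.0045. The median was -0.010 for its 7 core subunits, which carry the flavin and iron-sulfur centres. It was 0.0067 for 28 accessory subunits and 0.036 for 7 assembly factors, 5 of them higher. Ndufa4 and Ndufa4l2 were left out of this split. In complex II 1 member was higher and 3 lower, with a median of -0.0050. In complex III 2 were higher and 6 lower, with a median of -0.029. In complex IV 4 were higher and 11 lower, with a median of -0.029, and among the 11 widely expressed subunits 2 were higher and 9 lower. In complex V 6 were higher and 11 lower, with a median of -0.025. Over the left-out libraries the medians ran from -0.0064 to 0.021 for complex I, -0.029 to 0.026 for II, -0.035 to -0.0092 for III, -0.037 to -0.011 for IV and -0.028 to -0.0085 for V. Within complex V the medians were 0.0061 for the 5 subunits of the F1 head and -0.041 for the 3 genes of the c ring, Atp5g1, Atp5g2 and Atp5g3, which encode the same mature protein.

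**Figure D4:**
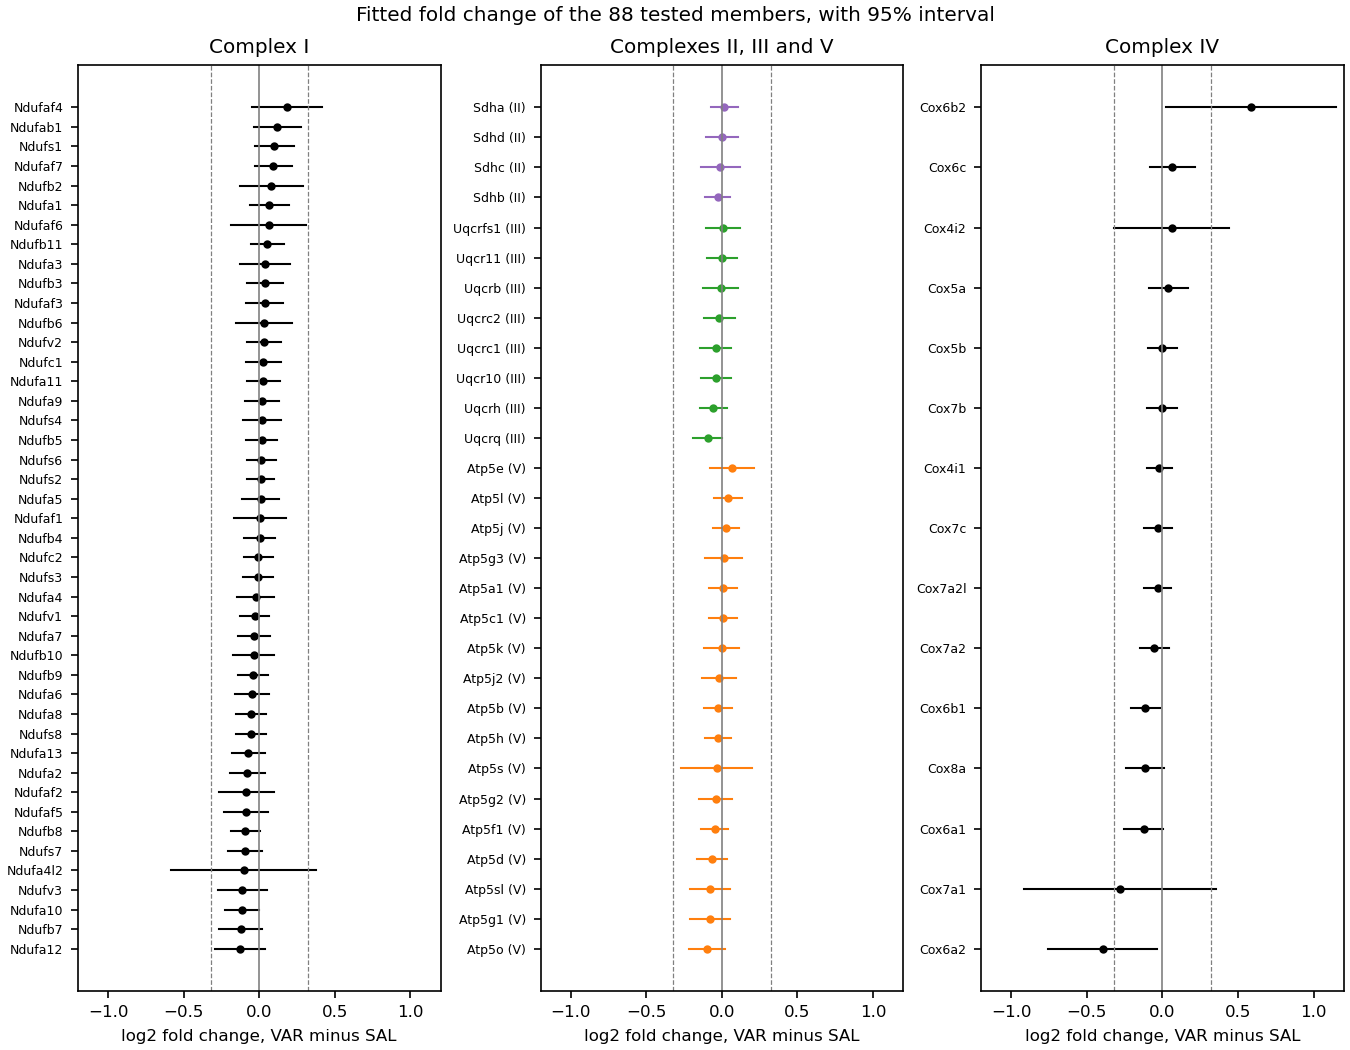
log2 fold change, VAR minus SAL, of each tested member with its 95% interval, by complex. Of the 88 intervals 82 lie within 0.32 log2 units of 0 (dashed lines), and the others are those of Ndufaf4 and of the 5 restricted isoforms tested.

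Of the 15 tested complex IV members 3, or 20%, had an unadjusted p under 0.05, close to the 16.9% of all genes. Cox6b1, an intermembrane-space subunit of cytochrome c oxidase at chr7:30616974-30626151, had 162, 163, 170, 161, 164 and 171 CPM in the VAR libraries, against 177, 173, 165, 175, 191 and 189 in the SAL libraries. All 6 VAR values were below the SAL mean, and they overlapped the SAL range only through SAL library 3. Its log2 fold change was -0.11 with a standard error of 0.0446, with an edgeR adjusted p of 0.223. Cox6a2 (chr7:128205435-128206366), a muscle-type isoform also known from parvalbumin interneurons, had 3.54, 3.74, 3.39, 4.26, 3.71 and 5.31 CPM in VAR and 3.93, 5.23, 4.31, 4.35, 7.08 and 6.48 in SAL. The groups overlapped, with VAR library 6 the highest VAR value and SAL libraries 5 and 6 the highest of all. The log2 fold change was -0.40 with a standard error of 0.168 and an edgeR adjusted p of 0.251. It shares 69 exonic bases with Itgad on the opposite strand, and no source used here says whether the counting used strand.

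Markers of fast-spiking interneurons were measured beside Cox6a2. Of the 5 tested, 4 were lower by sign in VAR and none passed the adjusted threshold. Kcnc1 at a log2 fold change of -0.33 and Kcns3 at -0.46 had an unadjusted p under 0.05, as 9.64% of all genes did in that direction. Pvalb was at -0.37, and Pthlh and Syt2 were near 0 at -0.036 and 0.026. The list averaged 4.43 ± 0.274 log2 CPM in VAR (4.04 to 4.85) and 4.67 ± 0.198 in SAL (4.38 to 4.93). Their part in the Cox6a2 values was not tested. Of 6 skeletal muscle markers 4 had too few counts to be tested, Ckm having 3 counts over all libraries, and the remaining pair averaged 0.885 ± 0.193 in VAR and 1.05 ± 0.287 in SAL. Beside Cox4i2 and Ndufa4l2, 7 of 8 pericyte markers were higher by sign and none had an unadjusted p under 0.05. Over all 15111 genes, 7903 were higher by sign and 7208 lower. The pericyte list averaged 4.01 ± 0.0681 in VAR and 3.94 ± 0.0875 in SAL.

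Cox6b2 (chr7:4751792-4753094) was the member with the largest fold change. It had 3.25, 1.40, 2.26, 2.22, 3.71 and 1.77 CPM in VAR and 1.43, 2.49, 1.16, 1.09, 1.58 and 1.81 in SAL. VAR libraries 1 and 5 were the highest, and the remaining VAR values lay among the SAL values. The log2 fold change was 0.59 with a standard error of 0.264 and an edgeR adjusted p of 0.274, from 20 to 68 counts per library. Cox6a1 had 200, 208, 204, 211, 214 and 239 CPM in VAR and 218, 218, 209, 238, 248 and 258 in SAL. The groups overlapped, mainly through VAR library 6, the highest of its group, and the means were 213 ± 13.7 in VAR and 232 ± 19.4 in SAL, a log2 fold change of -0.12 with an edgeR adjusted p of 0.317. Cox8a, a small membrane-embedded subunit, was at 240 ± 20.0 CPM in VAR and 260 ± 14.4 in SAL, a log2 fold change of -0.12 with an edgeR adjusted p of 0.330. Cox4i1 was at 399 ± 4.57 CPM in VAR and 405 ± 12.5 in SAL, a log2 fold change of -0.022. The rarer Cox7a1, Cox4i2 and Ndufa4l2 had log2 fold changes of -0.28, 0.061 and -0.10 with standard errors of 0.299, 0.178 and 0.226, and Cox7a1 was at -0.054 without SAL library 3.

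**Figure D5:**
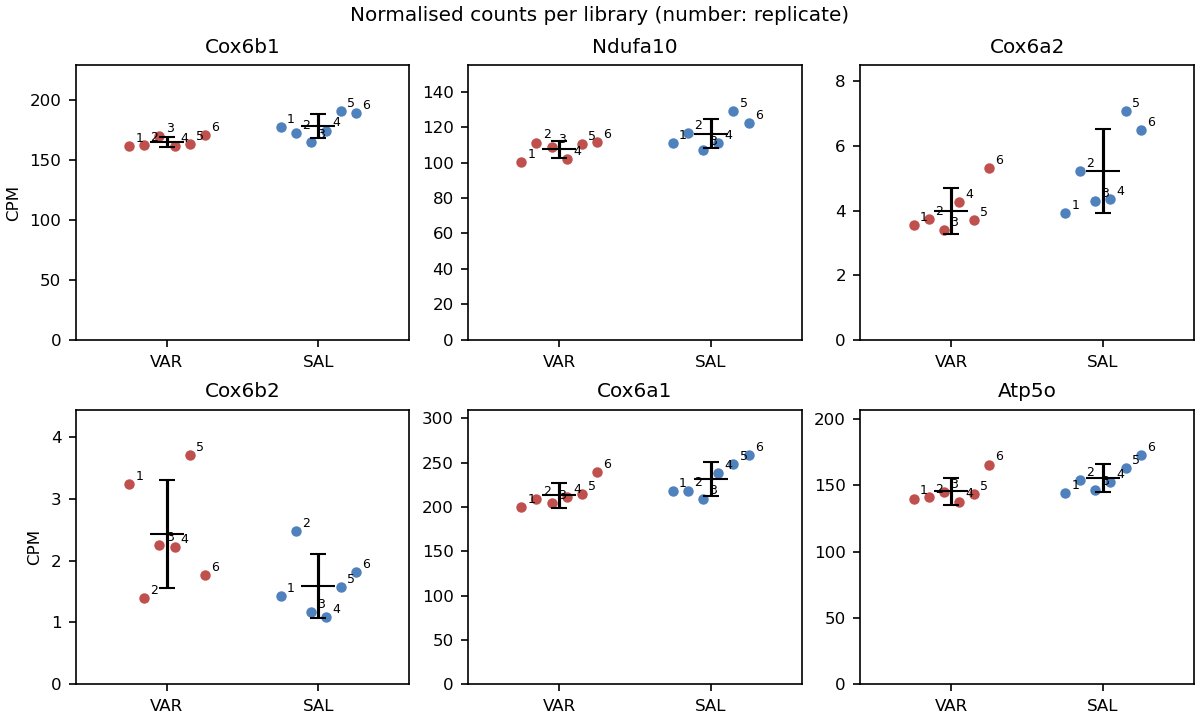
CPM by library (dots, numbered by replicate) of the 4 members with an unadjusted p under 0.05 and of Cox6a1 and Atp5o, VAR left of SAL, with group means and SDs (n = 6 each). Cox6b1 averages 165 CPM in VAR and 178 in SAL, and the groups overlap in every panel.

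The promoters of Cox6a1, Cox6b1 and Cox6b2, complex IV genes described above, are shown because the motifs of NRF1 and of ETS-family factors such as GABP are known from respiratory chain genes. They are the RefSeq windows of GRCm38.p6, minus strand, from 250 bases before to 50 after the start of the gene. Capitals mark matches to the NRF1 motif or the ETS motif (CCGGAAG) on either strand, and the NRF1 motif can be read in the first 2 runs of capitals in Cox6a1. Cox6a1 lies at chr5:115348909-115349208, Cox6b1 at chr7:30626065-30626364 and Cox6b2 at chr7:4753045-4753344.
Cox6a1: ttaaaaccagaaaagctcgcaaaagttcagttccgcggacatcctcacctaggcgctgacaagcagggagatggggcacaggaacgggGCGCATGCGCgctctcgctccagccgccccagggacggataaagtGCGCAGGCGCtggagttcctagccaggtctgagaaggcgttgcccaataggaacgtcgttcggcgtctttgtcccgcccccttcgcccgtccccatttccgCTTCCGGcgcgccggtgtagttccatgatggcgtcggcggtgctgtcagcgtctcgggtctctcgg
Cox6b1: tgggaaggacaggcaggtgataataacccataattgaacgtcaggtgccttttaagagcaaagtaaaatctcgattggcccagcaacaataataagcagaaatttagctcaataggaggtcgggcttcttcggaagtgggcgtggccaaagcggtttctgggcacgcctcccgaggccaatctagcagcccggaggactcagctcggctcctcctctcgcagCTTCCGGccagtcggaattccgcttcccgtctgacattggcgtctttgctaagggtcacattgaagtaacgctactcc
Cox6b2: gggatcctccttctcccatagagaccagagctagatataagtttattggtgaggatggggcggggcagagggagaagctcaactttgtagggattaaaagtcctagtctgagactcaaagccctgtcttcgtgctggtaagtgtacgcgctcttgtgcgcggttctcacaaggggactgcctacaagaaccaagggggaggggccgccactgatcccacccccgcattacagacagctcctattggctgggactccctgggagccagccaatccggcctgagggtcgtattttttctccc
Cox6a1 holds 2 NRF1 matches and 1 ETS match, Cox6b1 1 ETS match and Cox6b2 none of either. Of 82 promoters found for 76 members, 24.4% held the NRF1 motif, against 8.75% of 14557 promoters of tested genes and 4.60% of all 32851 promoters. The ETS motif was in 20.7% of member promoters, 15.1% of those of tested genes and 8.86% of all. The YY1 motif (AAGATGGC) was in 14.6%, 3.87% and 2.75% of the same 3 sets. The CCAAT box (CCAAT) was in 42.7%, 37.1% and 37.4%, and the Sp1 motif (GGGCGG) in 42.7%, 60.1% and 35.7%. A match is a run of letters, not a bound site.

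Of the 44 tested complex I members 1, or 2.27%, had an unadjusted p under 0.05, against 16.9% of all genes. Ndufa10, an accessory subunit of the membrane arm at chr1:92439719-92473758, had 100, 111, 109, 102, 110 and 111 CPM in VAR, against 111, 116, 107, 111, 129 and 122 in SAL. Every VAR value was below the SAL mean, and the groups overlapped around 107 to 111 CPM. The log2 fold change was -0.11 with a standard error of 0.0521 and an edgeR adjusted p of 0.285. Without SAL library 5 it was -0.073, and its unadjusted p was under 0.05 in 8 of the 24 alternatives run, against 17 for Cox6b1 and 15 each for Cox6a2 and Cox6b2. The next by p were Ndufb8 and Ndufb7, accessory subunits of the membrane arm, and Ndufs7, the core subunit that carries the last iron-sulfur cluster before ubiquinone. Ndufb8 was at 104 ± 3.91 CPM in VAR and 111 ± 5.10 in SAL, Ndufb7 at 43.9 ± 4.09 in VAR and 47.7 ± 3.19 in SAL, and Ndufs7 at 57.8 ± 2.21 in VAR and 61.7 ± 4.17 in SAL. Their log2 fold changes were -0.091, -0.12 and -0.095. Ndufa4, first purified with complex I and now counted with complex IV, was at 170 ± 7.53 CPM in VAR and 173 ± 14.7 in SAL.

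In the remaining complexes no member had an unadjusted p under 0.05. Of complex II, Sdha was at 378 ± 16.2 CPM in VAR and 374 ± 4.04 in SAL, and the log2 fold changes of Sdha, Sdhb, Sdhc and Sdhd were 0.017, -0.028, -0.0095 and -0.00057. Of complex III, Uqcrq, a small ubiquinone-binding subunit, was at 65.4 ± 3.01 CPM in VAR and 69.8 ± 2.54 in SAL, a log2 fold change of -0.094 with an edgeR adjusted p of 0.308. Uqcrh, the hinge protein of complex III, the small subunit Uqcr10 and the core protein Uqcrc1 had log2 fold changes of -0.056, -0.041 and -0.040. Of complex V, Atp5o, the stalk subunit that confers oligomycin sensitivity, had 140, 141, 145, 138, 143 and 166 CPM in VAR and 144, 154, 147, 152, 163 and 173 in SAL. VAR library 6 stood above its group's other libraries and inside the SAL range. The means were 146 ± 10.2 in VAR and 156 ± 10.7 in SAL, a log2 fold change of -0.097 with an edgeR adjusted p of 0.395. The delta subunit Atp5d and the c ring gene Atp5g1 had log2 fold changes of -0.065 and -0.080, and Atp5k -0.0011. Atp5sl, placed in complex V by its symbol alone, was at -0.079. Atp5b was at 1168 ± 30.7 CPM in VAR and 1189 ± 45.5 in SAL, and Atp5a1 at 828 ± 33.3 in VAR and 824 ± 24.9 in SAL.

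Genes that act with the chain were looked at through lists, against 16.9% of all genes at an unadjusted p under 0.05 (7.27% higher, 9.64% lower). Of 42 tested assembly factors outside the rule, 18 were higher and 24 lower by sign, 1 had an unadjusted p under 0.05 in each direction (Lrpprc, which stabilises mitochondrial mRNAs, at a log2 fold change of 0.13, and the copper-handling factor Cox19 at -0.15), none passed the adjusted threshold, and the median was -0.016. Of 14 partner genes, such as the adenine nucleotide carriers, 5 were higher and 9 lower, with a median of -0.031, and the unadjusted p was under 0.05 for 2, both lower, Atpif1 and Higd2a (log2 fold change -0.17). Atpif1, which inhibits ATP synthase when it runs in reverse, was at 93.7 ± 8.66 CPM in VAR and 110 ± 8.86 in SAL, a log2 fold change of -0.24 with an adjusted p of 0.144 by edgeR and 0.0437 by DESeq2, by which 2.69% of all genes passed. Of 13 citric acid cycle genes outside the rule, 4 were higher and 9 lower, with a median of -0.035. The unadjusted p was under 0.05 for Suclg2, a subunit of succinyl-CoA ligase, at a log2 fold change of 0.17, and for Idh3a, a subunit of isocitrate dehydrogenase, at -0.12, and no gene of either list passed with edgeR after adjustment.

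Of 12 tested regulators of mitochondrial biogenesis, 11 were higher by sign and 1 lower in VAR, where 7903 of all 15111 genes were higher. Their median log2 fold change was 0.063 against 0.0074 over all genes. At an unadjusted p under 0.05, 2 were higher, where 7.27% of all genes were. The list averaged 4.70 ± 0.0428 log2 CPM in VAR (4.63 to 4.75) and 4.59 ± 0.0373 in SAL (4.55 to 4.65), and the ranges overlapped. Gabpa, the DNA-binding subunit of the ETS factor GABP, was at 38.3 ± 3.67 CPM in VAR and 31.3 ± 3.18 in SAL, a log2 fold change of 0.29 with an adjusted p of 0.143 by edgeR and 0.0334 by DESeq2, and the groups overlapped. It overlaps Atp5j by 123 exonic bases on the opposite strand, and Atp5j, coupling factor F6, was at 139 ± 4.94 CPM in VAR and 137 ± 4.51 in SAL. Tfb1m, a mitochondrial rRNA methyltransferase, had a log2 fold change of 0.31 and Pprc1, a coactivator related to PGC-1alpha, of 0.21.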

How the data were processed

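RNA was measured in 12 striatal libraries, 6 VAR and 6 SAL. Tests rest on raw gene counts as the authors deposited them. The tools named per the submitters' processing notes are Trimmomatic and FastQC for reads, TopHat2, featureCounts, Cuffdiff, Cuffnorm and DESeq2, with mm10 as the build. No source used here states their versions or the gene annotation. Beside the counts stand deposited FPKM and a deposited signal, scaled counts named for Cuffnorm. FPKM, which scale for gene length, were used for levels as the authors deposited them, and both tables as alternatives. Gene length was taken as deposited, summed over exons. The FPKM are not simply the counts over this length. Atp5k, of 292 bases, had 71.2 CPM in each group but a mean of 763 FPKM over the 12 libraries. How the FPKM treat short genes was not tested.

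Members were taken by symbol, and genes with at least 10 counts in 6 or more libraries were kept, 15111 in all. After TMM scaling, VAR was tested against SAL in edgeR 4.0.16 (quasi-likelihood F test, default settings, R 4.3.3), and p-values were adjusted by Benjamini-Hochberg across the whole table, with a threshold of 0.05. Standard errors and 95% intervals come from the fit, and log2 CPM uses a prior count of 2. The procedure was tested on simulated data. Alternatives were DESeq2 1.42.0, limma-voom with sample weights (limma 3.58.1), other filters and size factors, limma on log-scaled FPKM (pseudocount 1 or 0.1) and on log-scaled Cuffnorm values (pseudocount 1), a cortical score as a covariate, the removal of a gene length trend, and leaving out each library. Figures were drawn with matplotlib 3.10.9. Promoters came from RefSeq tables.

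The members, lists and tests were chosen with earlier results of these data known. The genes named are, per complex, up to 4 with the smallest unadjusted p and the one with the highest FPKM, the tissue-restricted isoforms with their counterparts, and up to 3 per list with the smallest p. Ndufs5, Atp5a1, Atp5b, Atp5j and the other genes whose levels are given outside that rule were chosen after their values were seen. Nothing says whether each library came from a separate mouse, so p-values cover only the spread among these samples. The floor of 3 counts covers counting error only.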

Additional observations from a re-analysis of the deposited data

Results flagged for a closer look

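Over 70 sets of 6 values, each a named member or a complex mean in 1 group, 3 held a library far from its group's other 5 by a gap test, where chance gives 3.5 at 1 in 20. Cox4i1 in VAR library 1 was at 8.60765 log2 CPM, against 8.64 to 8.66 in the other VAR libraries. Atp5o in VAR library 6 was at 7.37426, against 7.11 to 7.18. Ndufa4l2 in VAR library 1 was at 0.581049, against 1.23 to 1.59, and rests on 19 counts there.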

How the results depend on the processing

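Under all 24 alternatives 0 members passed an adjusted p of 0.05, while between 0 and 2102 genes did over the table. The members' share at an unadjusted p under 0.05 was below that of all genes in each of the 24, between 0% and 12.5%, and their median log2 fold change lay between -0.022 and 0.0060. With limma-voom and sample weights (limma-voom below) 13.9% of all genes passed, and without VAR library 6 10.8% did, again with 0 members, though 11 members, 12.5%, then had an unadjusted p under 0.05, against 26.3% of all genes.

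Members higher at an unadjusted p under 0.05 numbered 1, and 0 with limma-voom and with the cortical covariate. Members lower numbered 3, and 7 with limma-voom, 5 with log2 of FPKM plus 1, FPKM plus 0.1 and the Cuffnorm values plus 1, 1 with the cortical covariate, and 7 with that covariate and without VAR library 6. In these fits 28.7% (limma-voom), 17.1% (FPKM plus 1), 17.3% (FPKM plus 0.1), 17.3% (Cuffnorm), 5% (covariate) and 11% (covariate, without VAR library 6) of all genes had an unadjusted p under 0.05 in either direction. Leaving out 1 library in turn gave 0 to 3 higher and 0 to 8 lower, both highest without VAR library 6. The complex I median was -0.02023 with the cortical covariate. In the partner list 1 gene passed the adjusted threshold with DESeq2, with limma-voom and without VAR library 6 (0 to 1 over the left-out libraries), in the citric acid cycle list 1 with limma-voom, and in the biogenesis list 1 with DESeq2, with limma-voom and without VAR library 6 (0 to 1).

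Some log2 fold changes changed sign, among them those of Cox7a1, Ndufa4l2 and Atp5g1, at -0.28, -0.10 and -0.080 in the main fit. With the cortical covariate they were 0.005771 for Sdhb, -0.03069 for Sdha, 2.662e-06 for Sdhd, 0.001686 for Atp5d, 0.0191 for Atp5g1 and 0.07536 for Atp5k. With that covariate and without VAR library 6 they were 0.1244 for Ndufa4, -0.004604 for Sdha, 0.0812 for Sdhc, 0.04227 for Sdhd, 0.1563 for Atp5k, 0.1705 for Cox7a1 and 0.003549 for Cox7a2. With limma-voom, Sdhc was at 0.007525 and Ndufa4l2 at 0.07838. With RLE size factors, Sdhd was at 0.001612, Atp5k at 0.0009859 and Cox7b at 0.001368. With no filter these were at 0.00271, 0.001871 and 0.002666, and with at least 1 CPM in 6 libraries at 0.003322, 0.002449 and 0.003262. With DESeq2, Sdhd was at 0.001013 and Cox7b at 0.0009073. On FPKM plus 1, Sdhd, Atp5k and Cox7b were at 0.01445, 0.02603 and 0.001696, and on FPKM plus 0.1 at 0.01467, 0.02606 and 0.001708. On the Cuffnorm values, Sdhd was at 0.01043 and Atp5k at 0.0221. With the length trend removed, Sdhc, Sdhd and Cox7b were at 0.005352, 0.01328 and 0.01335. Over the left-out libraries, log2 fold changes ran from -0.06385 to 0.01522 for Ndufa4, -0.03812 to 0.03766 for Sdhc, -0.02858 to 0.03706 for Sdhd, -0.02656 to 0.03438 for Atp5k, -0.01115 to 0.1402 for Cox4i2, -0.4208 to -0.05435 for Cox7a1 without a change of sign, -0.2056 to 0.04858 for Ndufa4l2 and -0.01704 to 0.02676 for Cox7b. The causes of these shifts were not tested. No paired analysis was possible because the labels give every library the replicate number 1, and the numbers used here follow the order of deposition. Counts of 20 to 68 per library limit what can be said of the rare isoforms such as Cox6b2.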
